A study of Rattus norvegicus with 18 samples.

Results

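The cytochrome P450 genes were taken as every probe whose annotated symbol began with Cyp followed by a family number, which left out cyclophilin names. This gave 69 of 22523 probes, for 66 distinct gene symbols. Cyp4a1, Cyp2c7 and Cyp3a23-3a1 had 2 probes each, and all 69 probes matched a current rat gene entry under the same symbol. The probes were read on 18 Illumina arrays, 1 array per female Wistar pup and 1 pup per litter, in 6 groups of 3. The frontal lobe was taken at postnatal day 41 from pups whose dams had 6 tail injections up to day 20, and each injection held vehicle alone (0 mg/kg), BDE-47 at 0.002 mg/kg or BDE-47 at 0.2 mg/kg. Total brain came from 10-day-old pups whose dams were injected 3 times, the last on day 5, in groups of vehicle, 0.002 mg/kg and 0.2 mg/kg. BDE-47 is a brominated diphenyl ether, a component of flame retardant mixtures, and the vehicle of every group held ethanol, Cremophor EL and water. The series-level text gives day 10 for both tissues, while the frontal lobe samples' own protocol gives day 41, which is used here. The pups were exposed only through their dams, and the labels say nothing of a dose measured in the pups. Tissue, age and injection schedule differ together, so their effects cannot be told apart.

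P450 enzymes hold a haem group and insert an oxygen atom into lipid-soluble molecules. Most sit in the endoplasmic reticulum and take electrons from P450 oxidoreductase (Por), while the mitochondrial members, such as Cyp27a1, Cyp24a1 and Cyp11b1, take them from adrenodoxin (Fdx1). Some members make or remove specific signals: cholesterol and its hydroxylated products, steroid hormones, vitamin D, retinoic acid and eicosanoids. Others, mainly of the early-numbered families, clear drugs and pollutants and are known above all from the liver. Liver forms of these families are classically induced through the receptors Ahr (Cyp1 genes), Nr1i3 (Cyp2b genes) and Nr1i2 (Cyp3a genes), and brominated diphenyl ethers are studied as activators of such receptors.

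Array medians lay between 7.83 and 7.84 in frontal lobe and between 7.88 and 7.89 in total brain, and pairs of arrays within a tissue correlated across probes at r of at least 0.981. All values are deposited levels on a log2-like scale, and a difference is called where its limma p, adjusted over all probes, is under 0.05. Region and cell type markers differed between the tissues. The choroid plexus list averaged 7.77 to 8.15 per array in frontal lobe and 8.85 to 9.17 in total brain, and the list of hypothalamus and hindbrain genes 8.28 to 8.61 in frontal lobe and 9.12 to 9.51 in total brain. The neuron list averaged 11.21 to 11.84 in frontal lobe and 11.67 to 11.99 in total brain, the astrocyte list 11.98 to 12.50 and 11.48 to 11.78, the oligodendrocyte and myelin list 10.36 to 10.86 and 9.70 to 10.39, and the endothelial and mural list 8.99 to 9.35 and 9.18 to 9.30, in the same order. The neuron mean joins genes that went apart. With vehicle, 5 of its 10 genes were called higher in frontal lobe and 3 lower, from -2.41 for Slc17a6 to 1.71 for Snap25. In whole tissue, fewer cells of a type and less RNA per cell cannot be told apart. Counted by probes at least 0.25 above the next array of their tissue, 3 arrays stood apart: frontal lobe 0.2 mg/kg replicate 2 (431 probes), total brain 0.002 mg/kg replicate 2 (643 probes) and frontal lobe vehicle replicate 1 (180 probes). Of the P450 probes, 1 was high in this way in the first (Cyp1b1), 1 in the second (Cyp7b1) and 14 in the third.

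At the array floor, taken as a mean of 8, 19 of the 69 P450 probes (27.5%) lay at or above it over the 18 arrays, beside 9652 of all 22523 probes (42.9%). In at least 1 of the 6 groups, 27 P450 probes (39.1%) reached a mean of 8, beside 10506 of all probes (46.6%). By tissue, 26 P450 probes had a mean of at least 8 over the frontal lobe arrays and 16 over the total brain arrays. By group, the numbers were 25 with vehicle, 19 at 0.002 mg/kg and 19 at 0.2 mg/kg in frontal lobe, and 19, 16 and 18 in total brain in the same dose order. The count of 25 in the frontal lobe vehicle group included probes that were high in 1 of its arrays, described below. On each of the 18 arrays, the same 14 P450 probes read at least 8 and the same 32 read below 8. Just inside the floor were Cyp26a1 (8.11), Cyp2c23 (8.09) and Cyp4f5 (8.01), and just outside it Cyp2t1 (8.00), Cyp2c12 (7.98) and Cyp24a1 (7.97). No detection p values were used, so a probe below the floor is called below the floor and not absent. Groups that did not overlap were common over the whole array. At 0.2 mg/kg against vehicle in frontal lobe this held for 14 of 69 P450 probes, beside 3966 of all 22523. At 0.002 mg/kg against vehicle it held for 4, beside 2876, and between the doses for 20, beside 5891. In total brain the counts were 9 beside 2281, 3 beside 2921 and 6 beside 2465, in the same order.

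**Figure D1:**
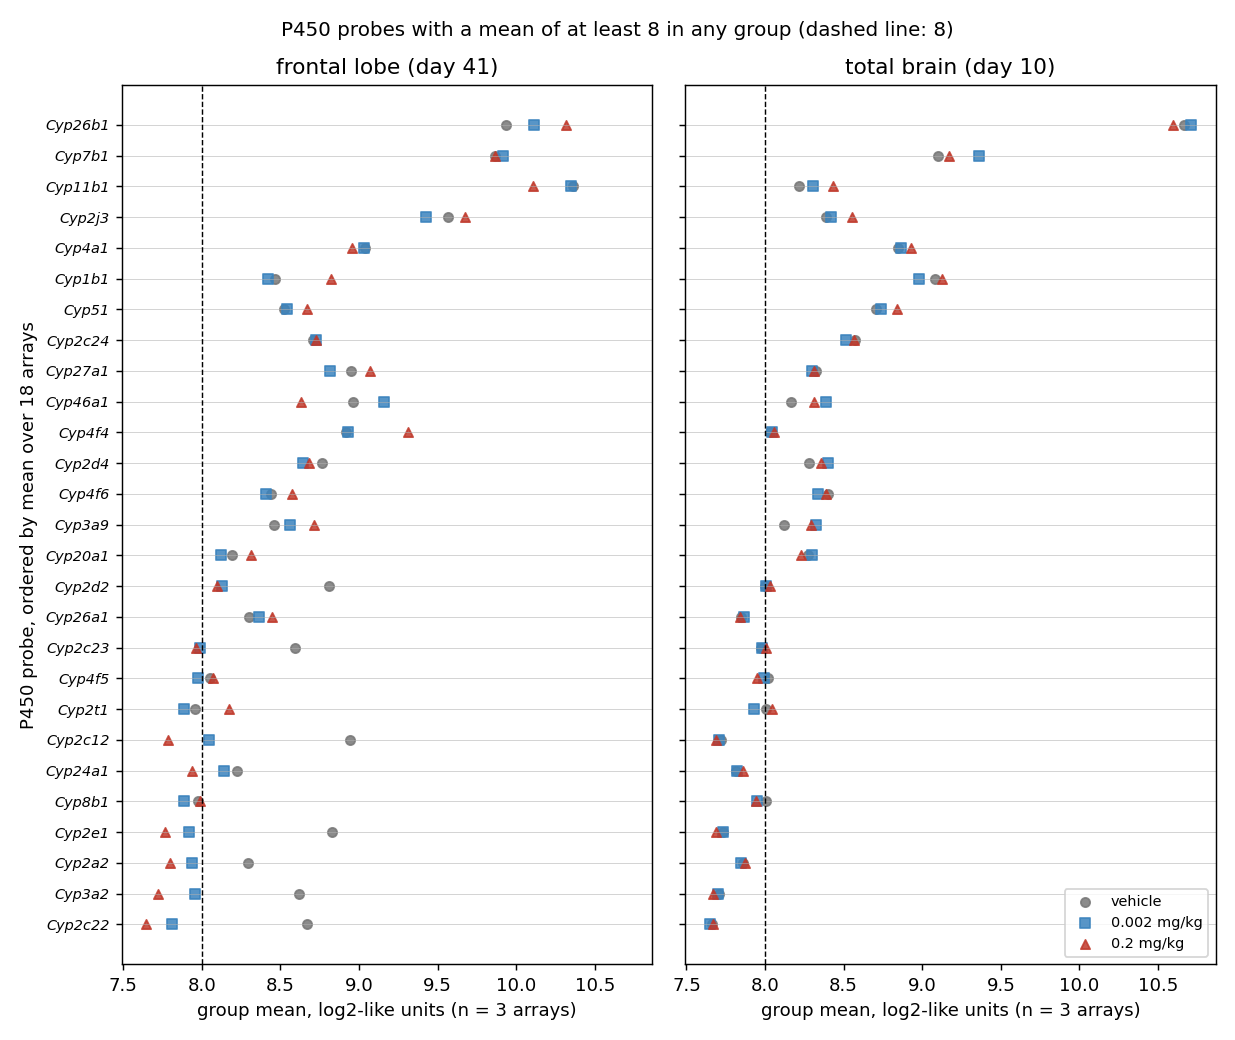
Group means of the 27 P450 probes with a mean of at least 8 in any group, in log2-like units, for frontal lobe (left) and total brain (right); each marker is the mean of 3 arrays and the dashed line marks 8. Cyp2c12, Cyp2e1, Cyp2a2, Cyp3a2 and Cyp2c22 pass the line in frontal lobe mainly with vehicle, and Cyp11b1 lies at 10.11 to 10.36 in frontal lobe and at 8.22 to 8.43 in total brain.

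Below 8 in all 6 groups were 42 probes of 40 symbols, with means over 18 arrays from 7.61 to 7.9. Among them were known targets of the xenobiotic receptors: Cyp1a1 and Cyp1a2, which oxidise aromatic hydrocarbons, and both probes of Cyp3a23-3a1, the rat Cyp3a1. No probe was annotated to Cyp2b1 or Cyp2b2, so these were not measured. Cyp1a1 read 7.58 to 7.65 in every frontal lobe array and 7.68 to 7.74 in every total brain array. The enzymes that start and finish steroid synthesis lay there as well: Cyp11a1, which cuts the cholesterol side chain, Cyp17a1, Cyp21a1, Cyp11b2, Cyp11b3 and Cyp19a1 (aromatase, which makes oestrogens). Of the vitamin D and sterol enzymes, Cyp2r1, Cyp39a1 and Cyp7a1 were below the floor. The fatty acid hydroxylases below it were Cyp2j10, Cyp2u1, the second probe of Cyp4a1, Cyp4a2, Cyp4a3, Cyp4a8, Cyp4b1, Cyp4f1, Cyp4f17, Cyp4f18, Cyp4f37, Cyp4f40 and Cyp4v3. The remaining ones were Cyp2s1 and the drug-metabolising Cyp2a1, Cyp2a3, Cyp2b3, Cyp2b12, Cyp2b15, Cyp2b21, both Cyp2c7 probes, Cyp2c11, Cyp2c13, Cyp2d1, Cyp2d5, Cyp2f4, Cyp2g1 and Cyp3a18. Of the 42, 35 were not high in that replicate, and their values in all 18 arrays lay between 7.5 and 8.02.

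Among the enzymes of sterol metabolism, 4 of 7 probes had a mean of at least 8. Cyp46a1, the neuronal enzyme that hydroxylates cholesterol so that it can leave the brain, read 8.84, 9.05 and 9.0 with vehicle, 9.28, 9.20 and 9.0 at 0.002 mg/kg and 8.69, 8.64 and 8.57 at 0.2 mg/kg in frontal lobe. Its total brain values were 8.09, 8.31 and 8.10 with vehicle, 8.32, 8.51 and 8.33 at 0.002 mg/kg and 8.23, 8.43 and 8.28 at 0.2 mg/kg. All 3 frontal lobe arrays at 0.2 mg/kg lay below all 6 others, and every frontal lobe array lay above every total brain array. In total brain the arrays at 0.002 mg/kg lay above those with vehicle. Cyp7b1, which inactivates oxysterols and neurosteroids such as DHEA, read 9.65, 10.16 and 9.77 with vehicle, 9.90, 9.91 and 9.93 at 0.002 mg/kg and 9.57, 10.09 and 9.94 at 0.2 mg/kg in frontal lobe. The total brain arrays read 9.05, 9.11 and 9.14 with vehicle, 9.19, 9.61 and 9.27 at 0.002 mg/kg and 9.19, 9.23 and 9.09 at 0.2 mg/kg, where the arrays at 0.002 mg/kg lay above those with vehicle and replicate 2 at 0.002 mg/kg lay above all the rest. Doses overlapped in frontal lobe, and the tissues overlapped only in that array and frontal lobe 0.2 mg/kg replicate 1. Cyp27a1, a mitochondrial sterol hydroxylase, read 8.99, 8.85 and 9.0 with vehicle, 8.93, 8.94 and 8.58 at 0.002 mg/kg and 9.12, 9.20 and 8.89 at 0.2 mg/kg in frontal lobe. Total brain arrays gave 8.31, 8.38 and 8.28 with vehicle, 8.29, 8.26 and 8.35 at 0.002 mg/kg and 8.34, 8.29 and 8.30 at 0.2 mg/kg. Its doses overlapped in both tissues. Cyp51, which demethylates lanosterol on the way to cholesterol, read 8.37, 8.61 and 8.59 with vehicle, 8.43, 8.70 and 8.49 at 0.002 mg/kg and 8.54, 8.83 and 8.64 at 0.2 mg/kg in frontal lobe. In total brain it read 8.64, 8.68 and 8.79 with vehicle, 8.78, 8.65 and 8.79 at 0.002 mg/kg and 9.03, 8.76 and 8.73 at 0.2 mg/kg, and its doses overlapped there too. Cyp8b1, a bile acid enzyme of the liver, had a group mean of at least 8 only in total brain with vehicle, where it read 7.93, 8.03 and 8.06. At the other doses of total brain it read 7.98, 7.93 and 7.94 (0.002 mg/kg) and 7.93, 7.93 and 7.97 (0.2 mg/kg), and in frontal lobe 8.06, 7.95 and 7.92 with vehicle, 7.91, 7.89 and 7.86 at 0.002 mg/kg and 7.96, 8.05 and 7.96 at 0.2 mg/kg. These values straddle the floor, and the frontal lobe arrays at 0.002 mg/kg lay below those of both other groups.

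Of the steroid, vitamin D and retinoic acid enzymes, 3 of 11 probes had a mean of at least 8. Cyp11b1, the mitochondrial enzyme of the last step to corticosterone, read 10.35, 10.29 and 10.44 with vehicle, 10.38, 10.38 and 10.28 at 0.002 mg/kg and 10.09, 10.10 and 10.12 at 0.2 mg/kg in frontal lobe. Its total brain values were 8.12, 8.33 and 8.20 with vehicle, 8.27, 8.28 and 8.37 at 0.002 mg/kg and 8.44, 8.45 and 8.40 at 0.2 mg/kg. In frontal lobe the 3 arrays at 0.2 mg/kg lay below the other 6, whereas in total brain they lay above the other 6. Cyp11b1, Cyp11b2 and Cyp11b3 are closely similar genes, and how specific each probe is was not tested, although the probes of Cyp11b2 and Cyp11b3 stayed below 8 in every array. Cyp24a1, which inactivates vitamin D, read 8.26, 8.27 and 8.15 with vehicle, 8.15, 8.08 and 8.18 at 0.002 mg/kg and 7.87, 7.97 and 7.97 at 0.2 mg/kg in frontal lobe. The total brain arrays read 7.76, 7.81 and 7.86 with vehicle, 7.85, 7.82 and 7.80 at 0.002 mg/kg and 7.94, 7.79 and 7.85 at 0.2 mg/kg. Its frontal lobe arrays at 0.2 mg/kg lay below 8 and below the other 6, while its total brain arrays were all below 8 and overlapped. Cyp26b1, which breaks down retinoic acid, read 9.61, 10.08 and 10.12 with vehicle, 10.15, 10.05 and 10.14 at 0.002 mg/kg and 10.25, 10.29 and 10.40 at 0.2 mg/kg in frontal lobe. Total brain arrays gave 10.73, 10.57 and 10.70 with vehicle, 10.53, 10.92 and 10.68 at 0.002 mg/kg and 10.77, 10.62 and 10.40 at 0.2 mg/kg. Its frontal lobe arrays at 0.2 mg/kg lay above those of both other groups, and vehicle replicate 1 was the lowest. Its relative Cyp26a1 read 8.5, 8.18 and 8.22 with vehicle, 8.40, 8.34 and 8.35 at 0.002 mg/kg and 8.34, 8.52 and 8.47 at 0.2 mg/kg in frontal lobe. In total brain it read 7.88, 7.81 and 7.86 with vehicle, 7.95, 7.79 and 7.85 at 0.002 mg/kg and 7.83, 7.89 and 7.82 at 0.2 mg/kg, all below 8, and its doses overlapped in both tissues.

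Among the enzymes of fatty acids and eicosanoids, 5 of 18 probes had a mean of at least 8. Cyp2j3, an epoxygenase of arachidonic acid, read 9.47, 9.86 and 9.37 with vehicle, 9.52, 9.37 and 9.38 at 0.002 mg/kg and 9.36, 10.07 and 9.60 at 0.2 mg/kg in frontal lobe. Its total brain values were 8.46, 8.52 and 8.18 with vehicle, 8.38, 8.60 and 8.27 at 0.002 mg/kg and 8.53, 8.73 and 8.41 at 0.2 mg/kg. Its doses overlapped in both tissues, and the tissues did not overlap. The probe of Cyp4a1 above the floor, for a fatty acid hydroxylase of the liver, read 8.82, 9.13 and 9.17 with vehicle, 9.02, 9.05 and 9.02 at 0.002 mg/kg and 9.01, 8.99 and 8.88 at 0.2 mg/kg in frontal lobe. The total brain arrays read 8.84, 8.86 and 8.83 with vehicle, 8.95, 8.84 and 8.81 at 0.002 mg/kg and 8.96, 8.93 and 8.90 at 0.2 mg/kg. In total brain its arrays at 0.2 mg/kg lay above those with vehicle, and in frontal lobe they lay below those at 0.002 mg/kg, with the vehicle arrays spanning both. The other Cyp4a1 probe stayed below 8 in every array (means of 8.94 and 7.63), so the probes disagree on whether the gene is above the floor. Cyp4f4, which hydroxylates leukotrienes and other fatty acids, read 9.08, 8.82 and 8.85 with vehicle, 8.99, 8.79 and 9.0 at 0.002 mg/kg and 9.28, 9.37 and 9.28 at 0.2 mg/kg in frontal lobe. Total brain arrays gave 8.08, 7.89 and 8.13 with vehicle, 8.12, 8.05 and 7.96 at 0.002 mg/kg and 8.00, 8.12 and 8.04 at 0.2 mg/kg. The frontal lobe arrays at 0.2 mg/kg lay above all others. Its relative Cyp4f6 read 8.57, 8.39 and 8.35 with vehicle, 8.45, 8.37 and 8.40 at 0.002 mg/kg and 8.49, 8.70 and 8.54 at 0.2 mg/kg in frontal lobe. In total brain it read 8.37, 8.40 and 8.43 with vehicle, 8.30, 8.27 and 8.44 at 0.002 mg/kg and 8.33, 8.38 and 8.46 at 0.2 mg/kg. Its arrays at 0.2 mg/kg lay above those at 0.002 mg/kg in frontal lobe and overlapped those with vehicle. Cyp4f5 read 7.96, 8.13 and 8.06 with vehicle, 7.98, 7.92 and 8.03 at 0.002 mg/kg and 8.04, 8.19 and 8.00 at 0.2 mg/kg in frontal lobe. Its total brain values were 8.04, 7.96 and 8.05 with vehicle, 7.99, 8.01 and 7.98 at 0.002 mg/kg and 7.99, 7.82 and 8.04 at 0.2 mg/kg, close to 8 in all groups.

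Of the drug-metabolising families and the remaining genes, 7 of 33 probes had a mean of at least 8. Cyp1b1, an Ahr target that oxidises oestradiol and aromatic hydrocarbons, read 8.64, 8.36 and 8.39 with vehicle, 8.44, 8.42 and 8.39 at 0.002 mg/kg and 8.49, 9.30 and 8.69 at 0.2 mg/kg in frontal lobe. The total brain arrays read 9.11, 9.09 and 9.04 with vehicle, 8.88, 8.88 and 9.16 at 0.002 mg/kg and 9.28, 9.01 and 9.09 at 0.2 mg/kg. The value of 9.30 in frontal lobe came from 0.2 mg/kg replicate 2, the array in which 431 probes stood apart. The meninges and fibroblast list (10 of 11 genes measured) averaged 10.85, 10.78 and 10.40 with vehicle, 10.52, 10.42 and 10.48 at 0.002 mg/kg and 10.99, 11.23 and 10.83 at 0.2 mg/kg. The microglia list averaged 9.91 in that array and 9.32 to 9.59 in the other frontal lobe arrays. The endothelial and mural list had 0 of 6 genes above 0 at 0.2 mg/kg against vehicle there, with a median difference of -0.10. Cyp1b1 is known from vessel walls and fibroblasts, and the part of these lists in its value was not tested. In frontal lobe the arrays at 0.2 mg/kg lay above those at 0.002 mg/kg and overlapped those with vehicle. The mean difference of 0.2 mg/kg from vehicle there was 0.36 with that array and 0.12 without it.

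Cyp2d4, the 2D form best known from rat brain, read 8.70, 9.04 and 8.55 with vehicle, 8.70, 8.59 and 8.63 at 0.002 mg/kg and 8.47, 8.98 and 8.59 at 0.2 mg/kg in frontal lobe. Total brain arrays gave 8.19, 8.40 and 8.25 with vehicle, 8.25, 8.52 and 8.42 at 0.002 mg/kg and 8.39, 8.34 and 8.34 at 0.2 mg/kg. Its doses overlapped. Cyp3a9, a 3A form reported in rat brain, read 8.36, 8.63 and 8.39 with vehicle, 8.59, 8.5 and 8.58 at 0.002 mg/kg and 8.61, 8.64 and 8.88 at 0.2 mg/kg in frontal lobe. In total brain it read 8.06, 8.22 and 8.09 with vehicle, 8.22, 8.37 and 8.39 at 0.002 mg/kg and 8.36, 8.25 and 8.27 at 0.2 mg/kg. In frontal lobe its arrays at 0.2 mg/kg lay above those at 0.002 mg/kg and overlapped those with vehicle. In total brain its vehicle arrays lay below those at 0.2 mg/kg and met those at 0.002 mg/kg. Cyp2c24 read 8.67, 8.78 and 8.67 with vehicle, 8.80, 8.76 and 8.63 at 0.002 mg/kg and 8.71, 8.76 and 8.70 at 0.2 mg/kg in frontal lobe. Its total brain values were 8.62, 8.61 and 8.49 with vehicle, 8.53, 8.49 and 8.54 at 0.002 mg/kg and 8.54, 8.53 and 8.62 at 0.2 mg/kg, with overlapping doses in both tissues. Cyp20a1, an orphan with no settled substrate, read 8.14, 8.14 and 8.30 with vehicle, 8.13, 8.19 and 8.05 at 0.002 mg/kg and 8.36, 8.34 and 8.25 at 0.2 mg/kg in frontal lobe. The total brain arrays read 8.26, 8.31 and 8.24 with vehicle, 8.35, 8.25 and 8.29 at 0.002 mg/kg and 8.27, 8.19 and 8.24 at 0.2 mg/kg. Its frontal lobe arrays at 0.2 mg/kg lay above those at 0.002 mg/kg. Cyp2t1, a little studied member just outside the floor, read 8.05, 7.85 and 7.97 with vehicle, 7.96, 7.84 and 7.86 at 0.002 mg/kg and 8.17, 8.29 and 8.06 at 0.2 mg/kg in frontal lobe. Total brain arrays gave 7.98, 7.98 and 8.05 with vehicle, 7.94, 7.83 and 8.01 at 0.002 mg/kg and 8.10, 7.99 and 8.04 at 0.2 mg/kg. Its frontal lobe arrays at 0.2 mg/kg lay above all others of that tissue. The remaining 2 of the 7 were Cyp2d2 and Cyp2c23, which were high in a single array.

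In frontal lobe vehicle replicate 1, 14 P450 probes (20.3% of 69) read at least 0.25 above the next of the 9 frontal lobe arrays, beside 0.799% of all probes. The number was 12 at a gap of at least 0.5 and 7 at a gap of at least 1. Of the 14, 12 belong to families 2 and 3, and the others are Cyp1a2 and Cyp7a1, the rate-limiting enzyme of bile acid synthesis. They are known as liver enzymes: Cyp2e1 oxidises ethanol, Cyp3a2 clears many drugs and Cyp2d2 oxidises debrisoquine. Because this set was chosen by these values, they are given as a description with no test.

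Cyp2c12 read 10.72, 8.16 and 7.93 with vehicle, 7.87, 8.5 and 7.77 at 0.002 mg/kg and 7.67, 7.88 and 7.81 at 0.2 mg/kg, and 7.68 to 7.73 in the 9 total brain arrays. Cyp2e1 read 10.67, 8.05 and 7.76 with vehicle, 7.77, 8.24 and 7.75 at 0.002 mg/kg and 7.69, 7.9 and 7.72 at 0.2 mg/kg, and 7.68 to 7.76 in total brain. Cyp3a2 read 10.10, 7.97 and 7.79 with vehicle, 7.74, 8.44 and 7.69 at 0.002 mg/kg and 7.72, 7.78 and 7.67 at 0.2 mg/kg, and 7.65 to 7.73 in total brain. In each of these genes 1 vehicle array was far above the rest, and the next was replicate 2 at 0.002 mg/kg. Cyp2c22 read 10.34, 7.93 and 7.74 with vehicle, 7.71, 8.09 and 7.63 at 0.002 mg/kg and 7.62, 7.68 and 7.64 at 0.2 mg/kg, and 7.62 to 7.68 in total brain. Cyp2d2 read 10.10, 8.21 and 8.12 with vehicle, 8.05, 8.27 and 8.07 at 0.002 mg/kg and 8.12, 8.11 and 8.05 at 0.2 mg/kg, and 7.93, 8.01 and 8.07 with vehicle, 8.01, 7.99 and 8.02 at 0.002 mg/kg and 8.01, 8.04 and 8.05 at 0.2 mg/kg in total brain. Cyp2c23, an epoxygenase first known from kidney, read 9.66, 8.11 and 8.00 with vehicle, 7.94, 8.11 and 7.92 at 0.002 mg/kg and 7.88, 8.07 and 7.94 at 0.2 mg/kg, and 7.93, 8.00 and 8.00 with vehicle, 8.03, 7.93 and 7.99 at 0.002 mg/kg and 8.06, 7.98 and 7.97 at 0.2 mg/kg in total brain. Without that array, the mean over the other 17 was 7.99 for Cyp2c23 and 8.07 for Cyp2d2, so Cyp2c23 was above the floor only with it. Cyp2a2 read 9.07, 7.91 and 7.91 with vehicle, 7.89, 8.03 and 7.88 at 0.002 mg/kg and 7.76, 7.81 and 7.82 at 0.2 mg/kg, and 7.82 to 7.9 in total brain. In the same vehicle array Cyp2c7 (1 of its probes) read 8.56, Cyp2b3 8.38, Cyp7a1 8.36, Cyp1a2 8.29, Cyp3a23-3a1 (1 of its probes) 8.27, Cyp2d5 8.05 and Cyp3a18 8.03, and these 7 stayed below 8 in the other 17 arrays. Cyp2c11 and Cyp2c13, also of the liver, were not among the 14, with 7.61, 7.59 and 7.56 and 7.71, 7.60 and 7.65 in the vehicle arrays. Of the second probes, that of Cyp2c7 read 7.61, 7.66 and 7.65 in the vehicle arrays and that of Cyp3a23-3a1 7.69, 7.59 and 7.52, so the probes of each gene disagree. P450 genes of a subfamily are similar in sequence, and cross-reaction between them was not tested.

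**Figure D2:**
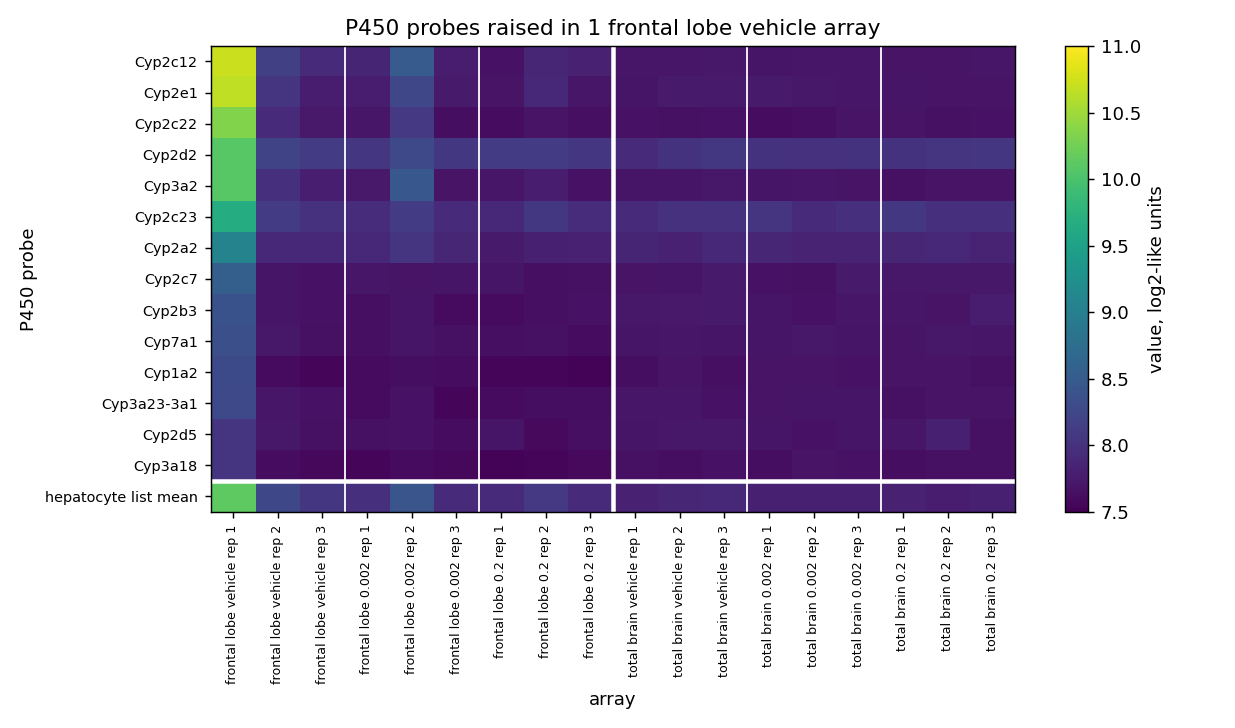
Values of the 14 P450 probes high in frontal lobe vehicle replicate 1 and, below them, the mean of the hepatocyte list, as colour in log2-like units for each of the 18 arrays. The first column reads 8.03 to 10.72 for the P450 probes and 10.13 for the list, and the next highest frontal lobe column of the list is 0.002 mg/kg replicate 2 at 8.42.

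A hepatocyte list was added after these values were seen. All of its 19 measured genes were highest in frontal lobe vehicle replicate 1 of the 18 arrays. Albumin (Alb) read 13.99 there, 9.22 to 10.66 in the other 8 frontal lobe arrays and 7.85 to 8.41 in total brain. Ahsg, another plasma protein of the liver, read 12.64 there, 8.16 to 9.79 in the other frontal lobe arrays and 7.74 to 8.29 in total brain. The list averaged 10.13 in that array, 8.26 and 8.05 in the other vehicle arrays, 7.99, 8.42 and 7.91 at 0.002 mg/kg, and 7.91, 8.08 and 7.92 at 0.2 mg/kg. In total brain it averaged 7.79 to 7.9. The part of these genes in the P450 values was not tested. For the 14 P450 probes, the difference of 0.002 mg/kg from vehicle ran from -0.91 to -0.16 with that array and from -0.08 to 0.07 without it. That of 0.2 mg/kg from vehicle ran from -1.15 to -0.16 with it and from -0.26 to -0.02 without it. No dose contrast called any of them, and between the vehicle groups of the tissues 0 of the 14 were called with that array and 2 without it (Cyp2d2 and Cyp1a2). Without it, Cyp2d2 was higher in frontal lobe, at 0.17, and Cyp1a2 lower, at -0.08, which is near the median shift of all probes, -0.07.

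Promoters were read for these genes because they were high together in 1 array, and that of Cyp46a1 is shown for contrast. RefSeq (GRCr8) gave a stretch of 300 bases around the start of 52 of the 66 genes, among them 12 of the 14. The motifs were chosen after the sequences had been read, and they were searched on both strands with overlaps allowed. CAAAGTNCA, the core bound by the liver factor HNF4, was found in 4 of the 12 (Cyp2c12, Cyp2d2, Cyp3a2 and Cyp3a23-3a1) and in 2 of the 40 other P450 promoters (Cyp26a1 and Cyp2c13), beside 1.24% of 33469 rat promoters of the same length. The GC box GGGCGG was found in 0 of the 12 and 16 of the 40 others, beside 33.1% of all. TATAAA was found in 6 of the 12 and 9 of the 40 others, beside 14.2% of all. A match describes the letters and is not evidence of binding. Cyp3a2 and Cyp3a23-3a1 are neighbours in the genome, as are Cyp2c12, Cyp2c13 and Cyp2c22 in a row, so these members are not independent. In the lines that follow, capitals mark CAAAGTNCA in the first 3 and GGGCGG in the fourth. The first 3 lie on the minus strand (chr1:248676985-248677284, chr12:14343808-14344107 and chr7:115819232-115819531), and the fourth, with 6 GC boxes and 73% G and C, on the plus strand (chr6:133011740-133012039).
Cyp2c12: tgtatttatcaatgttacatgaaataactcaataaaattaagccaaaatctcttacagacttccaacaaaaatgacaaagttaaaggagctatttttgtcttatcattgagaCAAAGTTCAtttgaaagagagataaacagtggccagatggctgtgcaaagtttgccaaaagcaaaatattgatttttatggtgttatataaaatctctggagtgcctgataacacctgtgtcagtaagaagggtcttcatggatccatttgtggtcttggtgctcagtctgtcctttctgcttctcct
Cyp3a2: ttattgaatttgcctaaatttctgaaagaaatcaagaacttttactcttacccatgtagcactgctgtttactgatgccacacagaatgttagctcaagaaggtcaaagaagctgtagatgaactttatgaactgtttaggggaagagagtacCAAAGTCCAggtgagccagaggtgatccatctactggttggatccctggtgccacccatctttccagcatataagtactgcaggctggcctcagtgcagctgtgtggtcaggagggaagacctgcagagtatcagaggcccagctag
Cyp2d2: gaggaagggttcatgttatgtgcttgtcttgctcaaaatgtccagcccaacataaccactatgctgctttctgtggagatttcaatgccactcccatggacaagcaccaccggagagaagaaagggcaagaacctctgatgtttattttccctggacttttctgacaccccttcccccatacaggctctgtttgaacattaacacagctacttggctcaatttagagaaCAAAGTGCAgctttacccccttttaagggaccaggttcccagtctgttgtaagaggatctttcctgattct
Cyp46a1: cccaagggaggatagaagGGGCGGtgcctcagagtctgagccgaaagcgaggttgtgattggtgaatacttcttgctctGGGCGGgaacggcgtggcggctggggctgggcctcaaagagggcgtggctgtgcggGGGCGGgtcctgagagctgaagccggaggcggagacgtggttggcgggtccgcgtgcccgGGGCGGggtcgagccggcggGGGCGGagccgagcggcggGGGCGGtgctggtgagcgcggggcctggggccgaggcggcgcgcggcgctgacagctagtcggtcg

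The contrast of 0.2 mg/kg with vehicle in frontal lobe asks what the higher dose did to these enzymes at day 41. Cyp24a1 and Cyp11b1 fell. Cyp24a1, the vitamin D inactivating enzyme, averaged 7.94 ± 0.06 at 0.2 mg/kg and 8.23 ± 0.06 with vehicle (SD, n = 3), a log2 difference of -0.29 ± 0.04 (SE, adjusted p = 0.0331) in limma. Cyp11b1, of corticosterone synthesis, averaged 10.11 ± 0.01 at 0.2 mg/kg and 10.36 ± 0.07 with vehicle (SD, n = 3), a log2 difference of -0.26 ± 0.04 (SE, adjusted p = 0.0401) in limma. Cyp24a1 lay close to the floor. These 2 of 69 (2.9%) stood beside 1.14% of all 22523 probes, with 0.497% of all probes called lower. Among probes with a mean of at least 8, 1 of 19 P450 probes was called (5.26%), beside 2.55% of all such probes. At an unadjusted p under 0.05 there were 7 P450 probes (10.1%), 4 higher and 3 lower, beside 15% of all probes. At that threshold the share of the family was not above that of the array.

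The 5 further P450 probes at an unadjusted p under 0.05 did not pass the adjusted threshold. Cyp4f4 had a difference of 0.39 ± 0.08 (SE, adjusted p = 0.0665), Cyp26b1 of 0.38 ± 0.12 (SE, adjusted p = 0.199), Cyp46a1 of -0.33 ± 0.08 (SE, adjusted p = 0.102), Cyp3a9 of 0.25 ± 0.09 (SE, adjusted p = 0.240) and Cyp2t1 of 0.21 ± 0.07 (SE, adjusted p = 0.198), all from limma. That of Cyp26b1 was 0.21 without vehicle replicate 1. The 2 calls rested on few arrays: they were 0 without vehicle replicate 1, without vehicle replicate 2, without 0.2 mg/kg replicate 1 or without 0.2 mg/kg replicate 2, and 1 without 0.2 mg/kg replicate 3. The neuron list moved with this contrast: its 10 genes averaged 11.53, 11.21 and 11.49 per array at 0.2 mg/kg and 11.65, 11.69 and 11.73 with vehicle, with 6 of 10 below 0, 1 called lower and a median difference of -0.31, beside 0.00 for all probes. Other lists moved with it too: the meninges and fibroblast list had 10 of 10 above 0, 1 called higher and a median of 0.21, the microglia list 6 of 7 above 0, 0 called and a median of 0.42, and the red blood cell list 5 of 5 above 0, 0 called and a median of 0.21. The astrocyte list had 4 of 6 above 0 and a median of 0.25, and the oligodendrocyte and myelin list 6 of 7 and 0.20. The endothelial and mural list went the other way, with 0 of 6 above 0 and a median of -0.10. In each of these, 0 were called. The choroid plexus list had 5 of 8 above 0 and a median of 0.01, and that of hypothalamus and hindbrain 7 of 10 and 0.02, with 0 called. Most genes of these 2 lists averaged below 8 in both groups, so their medians say little of a shift. Single genes moved more, among them Pomc at 1.17, Aqp1 at 0.22 and Kcnj13 at -0.24 (adjusted p = 0.137, 0.166 and 0.0676 in limma). The part of all these lists in the values of Cyp46a1, a neuronal gene, and of the 2 called genes was not tested.

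**Figure D3:**
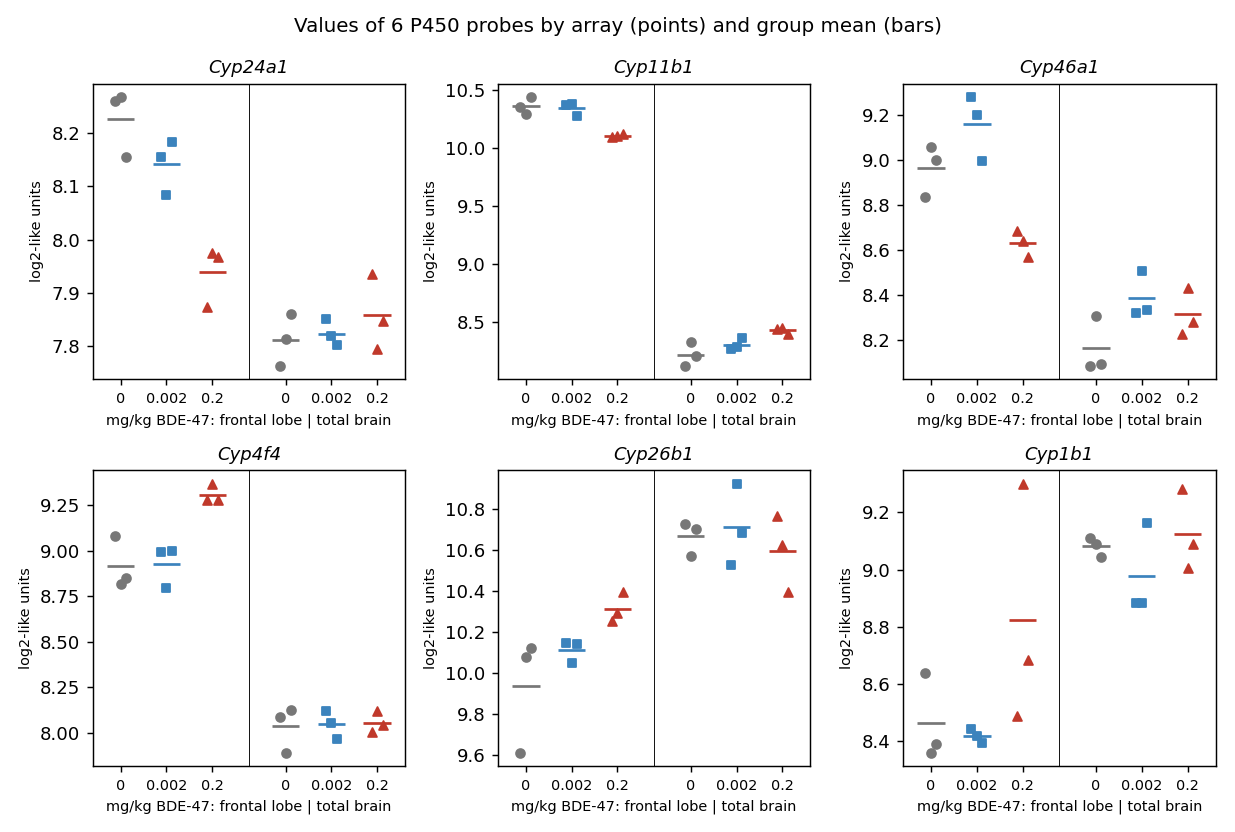
Values of 6 P450 probes on each array (points) with group means (bars), in log2-like units against the dose in mg/kg, for frontal lobe (left of the line) and total brain (right); the vertical axes differ between panels and do not start at 0. Cyp24a1, Cyp11b1 and Cyp46a1 have their lowest frontal lobe points at 0.2 mg/kg, and Cyp1b1 has 1 high frontal lobe point there, at 9.30.

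The contrast of both doses in frontal lobe leaves the vehicle arrays out. Cyp46a1 fell at 0.2 mg/kg, with 8.63 ± 0.06 against 9.16 ± 0.15 at 0.002 mg/kg (SD, n = 3), a log2 difference of -0.53 ± 0.08 (SE, adjusted p = 0.0231) in limma. Cyp11b1 fell too, with 10.11 ± 0.01 against 10.35 ± 0.06 at 0.002 mg/kg (SD, n = 3), a log2 difference of -0.24 ± 0.04 (SE, adjusted p = 0.0324) in limma. Cyp4f4 had a difference of 0.38 ± 0.08 (SE, adjusted p = 0.0526), Cyp24a1 of -0.20 ± 0.04 (SE, adjusted p = 0.0576), Cyp2t1 of 0.28 ± 0.07 (SE, adjusted p = 0.0762), Cyp20a1 of 0.19 ± 0.06 (SE, adjusted p = 0.125), Cyp4f6 of 0.17 ± 0.07 (SE, adjusted p = 0.252) and Cyp8b1 of 0.10 ± 0.04 (SE, adjusted p = 0.236), none past the threshold. The 2 calls of 69 (2.9%) stood beside 2.87% of all probes, with 1.44% of all called lower, so the share was that of the background. Among probes with a mean of at least 8, 2 of 19 P450 probes were called (10.5%), beside 6.3% of all such probes. At an unadjusted p under 0.05 there were 8 P450 probes (11.6%), beside 18.7% of all. Without 0.002 mg/kg replicate 1, 0.002 mg/kg replicate 2 or 0.2 mg/kg replicate 2, no P450 probe was called, and without any of the other 3 arrays Cyp46a1 alone was. The neuron list averaged 11.73, 11.75 and 11.84 per array at 0.002 mg/kg, above every 0.2 mg/kg array, with a median difference of -0.36 and 3 of 10 genes called lower. In the same contrast the meninges and fibroblast list had 10 of 10 above 0, 2 called higher and a median of 0.39, the microglia list 6 of 7 above 0, 0 called and a median of 0.24, and the red blood cell list 5 of 5 above 0, 0 called and a median of 0.32. The astrocyte, oligodendrocyte and myelin, and endothelial and mural lists had medians of -0.02, 0.01 and -0.003, with 0 called. The part of the list shifts in the P450 values was not tested.

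At 0.002 mg/kg against vehicle in frontal lobe, no P450 probe was called by limma, and none of all probes was (0%). At an unadjusted p under 0.05 there was 1 P450 probe (1.45%), Cyp46a1, with a difference of 0.19 ± 0.08 (SE, adjusted p = 0.910), beside 5.11% of all probes. This contrast shares the vehicle arrays with that of 0.2 mg/kg, so their values are not independent. For the genes above, the differences from vehicle at 0.002 and at 0.2 mg/kg were -0.09 and -0.29 for Cyp24a1, -0.02 and -0.26 for Cyp11b1, 0.19 and -0.33 for Cyp46a1, and 0.01 and 0.39 for Cyp4f4. The median over the 69 was -0.03 at 0.002 mg/kg and -0.01 at 0.2 mg/kg, beside 0.00 for all probes at both.

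In total brain no P450 probe was called by limma at either dose or between the doses, and no other probe was (0%, 0% and 0% of 22523 probes). At an unadjusted p under 0.05 there were 3 P450 probes (4.35%) in each contrast, all higher at the dose named first: at 0.2 mg/kg against vehicle beside 4.32% of all probes, at 0.002 mg/kg against vehicle beside 6.52%, and at 0.2 against 0.002 mg/kg beside 5.87%. At 0.2 mg/kg against vehicle these were Cyp11b1 at 0.21 ± 0.05 (SE, adjusted p = 1.00), Cyp3a9 at 0.17 ± 0.06 (SE, adjusted p = 1.00) and Cyp21a1 at 0.08 ± 0.03 (SE, adjusted p = 1.00). Cyp21a1, an adrenal steroid hydroxylase, stayed below 8 in all of its arrays. At 0.002 mg/kg against vehicle they were Cyp7b1 at 0.26 ± 0.10 (SE, adjusted p = 0.733), Cyp46a1 at 0.23 ± 0.08 (SE, adjusted p = 0.733) and Cyp3a9 at 0.20 ± 0.06 (SE, adjusted p = 0.733). Without 0.002 mg/kg replicate 2, the array in which 643 probes stood apart, the difference of Cyp7b1 was 0.13. Between the doses they were Cyp11b1 at 0.12 ± 0.05 (SE, adjusted p = 0.780), Cyp2t1 at 0.12 ± 0.05 (SE, adjusted p = 0.780) and Cyp11b3 at 0.06 ± 0.02 (SE, adjusted p = 0.780).

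Whether the tissues differed in their response was tested as an interaction over all 18 arrays. Cyp11b1 differed: its change at 0.2 mg/kg was -0.26 in frontal lobe and 0.21 in total brain, a log2 difference between them of -0.47 ± 0.07 (SE, adjusted p = 0.0148) in limma. Cyp24a1 differed as well, with -0.29 in frontal lobe and 0.05 in total brain, a difference between them of -0.33 ± 0.06 (SE, adjusted p = 0.0465) in limma. For Cyp11b1 each tissue's 0.2 mg/kg arrays lay wholly on 1 side of its vehicle arrays, and on opposite sides in the tissues. For Cyp24a1 the total brain arrays overlapped. These 2 of 69 P450 probes (2.9%) stood beside 0.204% of all probes. At an unadjusted p under 0.05 there were 7 P450 probes (10.1%), 3 higher and 4 lower, beside 2703 of all 22523 probes. Without total brain 0.2 mg/kg replicate 1 or replicate 2, none was called (adjusted p = 0.0535 and 0.0543 for Cyp11b1 in limma), and Cyp24a1 was called in 1 of the 12 fits that left out 1 array. For 0.002 mg/kg no P450 probe was called, and none of all probes was (0%). At an unadjusted p under 0.05 there were 0 P450 probes, beside 1108 of all 22523 probes. Tissue, age and number of injections cannot be told apart in this contrast.

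Between the vehicle groups, 12 P450 probes were higher and 19 lower in frontal lobe at day 41 than in total brain at day 10, beside 9.01% of all probes called higher and 43.7% called lower. All probes together had a median shift of -0.07 (log2), and array medians differed by tissue, so small differences are read against that shift. The median over the 69 P450 probes was 0.01. Of the 27 P450 probes with a mean of at least 8 in either vehicle group, 12 were called higher and 2 lower. The 42 below 8 in both had 17 called lower, by -0.11 to -0.07, which is the size of the shift of all probes, and 0 higher. Of all 12344 probes below 8 in both, 6212 were called lower and 82 higher. With each array centred on its median, 14 of the 69 were called, 12 higher and 2 lower. Among probes with a mean of at least 8, 13 of 19 P450 probes were called (68.4%), beside 54.1% of all such probes. Of the 19, 11 were called higher and 2 lower, beside 1852 higher and 3369 lower of all 9652.

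Cyp11b1 had the widest gap, with 10.36 ± 0.07 in frontal lobe and 8.22 ± 0.10 in total brain (SD, n = 3), a log2 difference of 2.14 ± 0.05 (SE, adjusted p = 4.62e-12) in limma. The sterol enzymes Cyp46a1, at 0.80, Cyp7b1, at 0.76, and Cyp27a1, at 0.62, were higher in frontal lobe (adjusted p = 8.32e-06, 0.000721 and 0.000100 in limma). Cyp51, of cholesterol synthesis, had a difference of -0.18 ± 0.10 (SE, adjusted p = 0.140) and did not pass. The eicosanoid enzymes Cyp2j3, at 1.18, Cyp4f4, at 0.88, and Cyp4a1, at 0.20, were higher (adjusted p = 0.000109, 1.37e-06 and 0.0303 in limma). Cyp4f6, at 0.04 ± 0.06 (SE, adjusted p = 0.644), and Cyp4f5, at 0.03 ± 0.06 (SE, adjusted p = 0.684), did not pass. The retinoic acid enzymes went apart: Cyp26a1 was higher by 0.45 and Cyp26b1 was lower, at -0.73 (adjusted p = 0.000222 and 0.000539 in limma). Cyp24a1 was higher by 0.41 (adjusted p = 6.55e-06). Of the drug-metabolising genes, Cyp2d4, at 0.48, Cyp3a9, at 0.34, and Cyp2c24, at 0.14, were higher (adjusted p = 0.00793, 0.00431 and 0.0298), and Cyp1b1, at -0.62, was lower (adjusted p = 0.00568).

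Leaving out each of the 6 vehicle arrays in turn kept 12 of these 14 called each time. Cyp4a1 was called in 1 of the 6 such fits and Cyp2c24 in 4. The probes high in vehicle replicate 1 had wide errors, with differences of 1.22 for Cyp2c12 (0.33 without that array), 1.09 for Cyp2e1 (0.17), 1.00 for Cyp2c22 (0.17), 0.91 for Cyp3a2 (0.17), 0.81 for Cyp2d2 (0.17), 0.62 for Cyp2c23 (0.09) and 0.43 for Cyp2a2 (0.05). Beside the lower levels of Cyp1b1 and Cyp26b1 in frontal lobe, 7 of the 10 measured meninges and fibroblast genes were called lower there and 1 higher, with a list median of -0.65. The array means of that list were 10.85, 10.78 and 10.40 in frontal lobe and 11.31, 10.95 and 11.23 in total brain. Its part in these 2 genes was not tested.

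**Figure D4:**
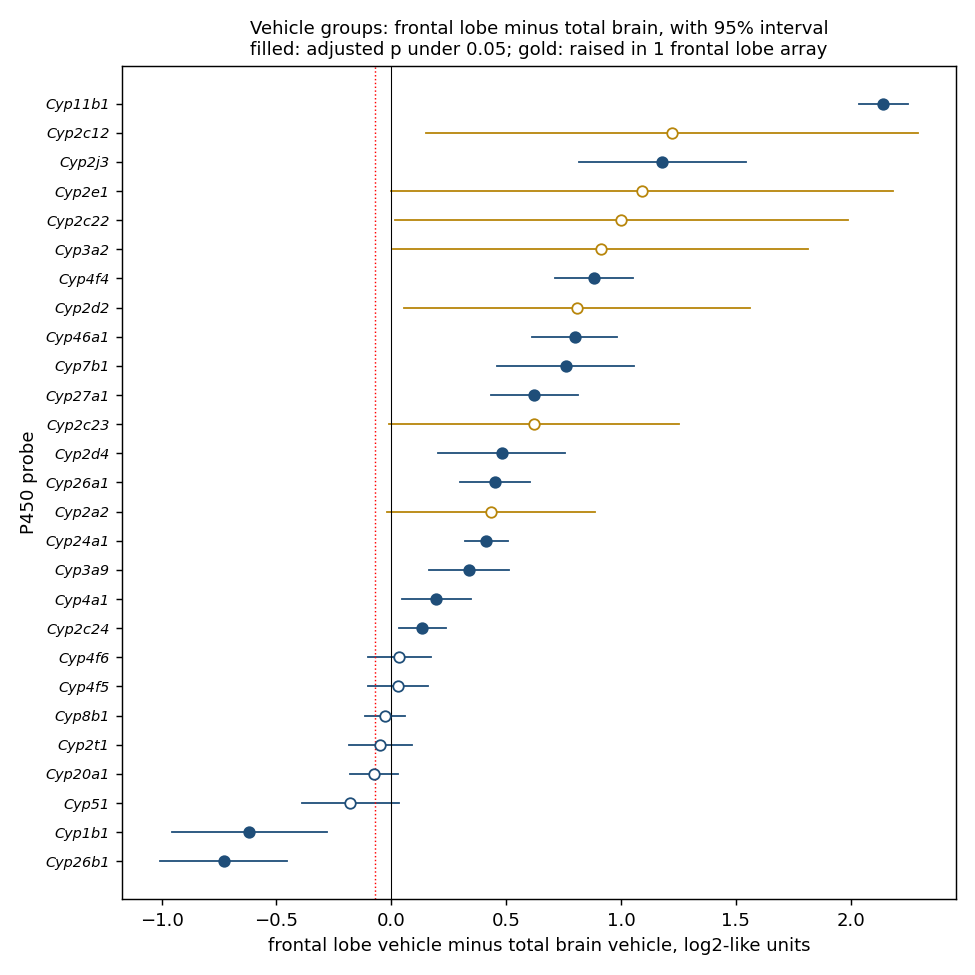
Difference of frontal lobe vehicle from total brain vehicle for the 27 P450 probes with a mean of at least 8 in either group, in log2-like units, with 95% intervals from limma over 18 arrays; filled points passed the threshold, gold points were high in frontal lobe vehicle replicate 1, and the dotted line is the median of all probes. Cyp11b1 lies at 2.14, Cyp1b1 at -0.62 and Cyp26b1 at -0.73.

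The partners of these enzymes were read from 4 lists. Of 14 redox partners, 11 were measured, and Cyb5r2, a cytochrome b5 reductase, rose at 0.2 mg/kg in frontal lobe: 8.85 ± 0.10 against 8.36 ± 0.04 with vehicle and 8.35 ± 0.06 at 0.002 mg/kg (SD, n = 3). The log2 differences were 0.49 and 0.50 (adjusted p = 0.0135 and 0.0110 in limma), and they passed in 3 and 5 of the 6 fits that left out 1 array. Against vehicle in frontal lobe at 0.2 mg/kg, 8 of 11 were above 0, with 1 called higher and 0 lower, and the median was 0.06, beside 0.00 over all probes. Adrenodoxin (Fdx1), which serves Cyp11b1 and Cyp24a1, had a difference of 0.23 from vehicle (adjusted p = 0.349). In total brain at 0.002 mg/kg against vehicle, Cyb5r4 and Cyb5r1 had 0.15 and -0.17 (adjusted p = 0.733 for both). Between the vehicle groups there were 3 called higher and 2 lower in frontal lobe, beside 9.01% of all probes called higher and 43.7% lower. The higher ones were Fdx2 (0.86), Pgrmc1 (0.40) and Pgrmc2 (0.39), and the lower ones Cyb5r2 (-0.50) and Cyb5r3 (-0.29).

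Of 24 receptors and regulators of P450 genes, 21 were measured and none was called against vehicle in either tissue. Against vehicle in frontal lobe at 0.2 mg/kg, 11 of 21 were above 0, with 0 called higher and 0 lower, and the median was 0.00, beside 0.00 over all probes. Rxrb, a partner of many of these receptors, had differences of 0.35 at 0.002 mg/kg and 0.33 at 0.2 mg/kg in frontal lobe (adjusted p = 0.910 and 0.115). Srebf2, which drives cholesterol synthesis genes including Cyp51, had -0.29 at 0.2 mg/kg against vehicle (adjusted p = 0.140) and fell against 0.002 mg/kg by 0.44 on the log2 scale (adjusted p = 0.0358 in limma, passing in 1 of 6 fits that left out 1 array). In total brain Srebf1 had 0.24 at 0.002 mg/kg (adjusted p = 0.733) and Ppara 0.07 at 0.2 mg/kg (adjusted p = 1.00). Between the vehicle groups, 5 of 21 were called higher and 6 lower in frontal lobe, beside 9.01% of all probes called higher and 43.7% lower. The higher ones were Srebf1 (0.48), Nfe2l2 (0.40), Nr1h3 (0.19), Nr1h2 (0.18) and Nr3c1 (0.09), and the lower ones Rxrg (-1.33), Rarb (-0.62), Nr0b1 (-0.23), Arnt (-0.10), Esr1 (-0.08) and Ahrr (-0.06). The differences of Arnt, Esr1 and Ahrr were near the median shift of all probes, -0.07.

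Of 13 genes of haem synthesis and breakdown, 11 were measured and none was called against vehicle. Against vehicle in frontal lobe at 0.2 mg/kg, 8 of 11 were above 0, with 0 called higher and 0 lower, and the median was 0.14, beside 0.00 over all probes. At 0.2 against 0.002 mg/kg in frontal lobe, Urod, of haem synthesis, rose by 0.54 and Blvra, which reduces biliverdin, by 0.54 (adjusted p = 0.0432 and 0.0392 in limma). They passed in 1 and 0 of the 6 fits that left out 1 array. Against vehicle, Urod had 0.40 at 0.2 mg/kg (adjusted p = 0.124) and Alad -0.16 at 0.002 mg/kg (adjusted p = 0.910). In total brain Alas2, the red cell form of the first haem enzyme, had 0.45 at 0.2 mg/kg (adjusted p = 1.00) and Fech 0.27 at 0.002 mg/kg (adjusted p = 0.733). The red blood cell list (5 of 7 genes measured, Alas2 among them) moved with these values. In frontal lobe it averaged 10.86, 10.87 and 10.69 per array at 0.2 mg/kg and 10.24, 10.48 and 10.57 at 0.002 mg/kg, which did not overlap. In total brain it averaged 10.89, 11.06 and 11.05 at 0.2 mg/kg and 10.61, 10.68 and 10.62 with vehicle, again without overlap, with 5 of 5 genes above 0, 0 called and a difference of 1.05 for the globin gene Hbb-b1. Its part in the haem gene values was not tested. With vehicle, Blvra (0.57) and Hmox2 (0.38) were called higher in frontal lobe than in total brain and Hmox1 (-0.27) lower. Of all probes, 9.01% were called higher there and 43.7% lower.

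Of 35 genes that act beside the brain P450 enzymes, 27 were measured. Against vehicle in frontal lobe at 0.2 mg/kg, 17 of 27 were above 0, with 1 called higher and 0 lower, and the median was 0.04, beside 0.00 over all probes. Stard3, a cholesterol transfer protein, rose at 0.2 mg/kg against vehicle in frontal lobe, by 0.27 (adjusted p = 0.0402 in limma, passing in 1 of 6 fits that left out 1 array). At 0.2 against 0.002 mg/kg, Crabp2, a retinoic acid binding protein, rose by 0.85 and Tm7sf2, which acts after Cyp51 in cholesterol synthesis, by 0.31 (adjusted p = 0.0401 and 0.0345 in limma). They passed in 2 and 1 of those 6 fits. Tm7sf2 had -0.21 at 0.002 mg/kg against vehicle (adjusted p = 0.910). In total brain Ephx1, an epoxide hydrolase, had 0.10 at 0.002 mg/kg (adjusted p = 0.733) and Star, which brings cholesterol to mitochondria, -0.08 at 0.2 mg/kg (adjusted p = 1.00). With vehicle there were 5 called higher and 10 lower in frontal lobe, against total brain, beside 9.01% and 43.7% of all probes. The genes higher in frontal lobe were Hsd11b1 (0.89), Sc5d (0.82), Apoe (0.78), Aldh1a1 (0.59) and Ephx1 (0.24). The genes lower there included 5 of cholesterol synthesis, Sqle, Tm7sf2, Dhcr7, Nsdhl and Hsd17b7, with differences of -1.06 to -0.53, beside Cyp51 at -0.18. The others lower there were Crabp1 (-1.34), Abca1 (-0.23), Star (-0.13), Hsd3b1 (-0.11) and Soat1 (-0.08). Those of Star, Hsd3b1 and Soat1 were small and are read against the median shift of all probes, -0.07. For every partner list, the differences between the vehicle groups include frontal lobe vehicle replicate 1, the array with high hepatocyte genes. They were not refitted without it.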

How the data were processed

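Levels were deposited on a log2-like scale. Per the submitters' processing notes the authors used lumi, whose version, transformation and background step are not stated in the labels. No detection p values were used. Medians were alike within a tissue and differed between tissues, so the tissues may have been normalized apart. Nothing was rescaled. Symbols came from the platform annotation (13793 of 22523 probes named, 8730 unnamed), checked against RefSeq by Entrez identifier.

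All probes were fitted in limma 3.58.1 (R 4.3.3), dose contrasts on the 9 arrays of a tissue, the tissue contrast and interactions on all 18. Called means a limma p, adjusted by Benjamini-Hochberg across 22523 probes, under 0.05. P450 probes with a mean of at least 8 over all arrays, called, or at an unadjusted p under 0.05 for a dose are given by array. Of each partner list, the called genes and those with the smallest p against vehicle (up to 2 per tissue) are named. The members, lists and rules were chosen with earlier results of these data known. The hepatocyte list, the gap of 0.25 and the motifs were chosen on the values or sequences themselves. The fits were tested on simulated data. Settings varied were the scaling (quantile, median), the probes kept (brighter 50%), eBayes options, array weights, a replicate block, the arrays in the fit, the threshold and the floor. Figures were drawn in Python 3.11.15. With 3 pups of separate litters per group, array number limits the precision.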

Additional observations from a re-analysis of the deposited data

Results flagged for a closer look

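The response of Cyp11b1 to 0.2 mg/kg differed between the tissues, with an interaction of -0.47 (adjusted p = 0.0148 in limma), with its 3 frontal lobe arrays at that dose below vehicle and its 3 total brain arrays above it. The response of Cyp24a1 differed too, with an interaction of -0.33 (adjusted p = 0.0465 in limma), on a probe whose frontal lobe means lay between 7.94 and 8.23. Its total brain arrays overlapped between the doses. Of the 12 fits that left out 1 array, 1 kept the call of Cyp24a1 and 10 that of Cyp11b1.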

How the results depend on the processing

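Over 557 alternatives of the 39 P450 probe comparisons named with a test, 482 kept direction and side of the threshold, 60 lost the call, 15 gained it and 0 reversed. The 482 include uncalled comparisons that stayed uncalled, and the dose calls were kept less often. In frontal lobe at 0.2 mg/kg against vehicle, Cyp24a1 kept its call in 8 of 15 alternatives and Cyp11b1 in 5 of 15. Against 0.002 mg/kg, Cyp46a1 kept it in 10 of 15 and Cyp11b1 in 6 of 15. The interaction call was kept in 16 of 19 for Cyp11b1 and 5 of 19 for Cyp24a1. For 0.2 mg/kg against vehicle in frontal lobe, the 2 calls became 1 with array weights, 0 with the 6 arrays compared alone and 0 without vehicle replicate 1 and 0.2 mg/kg replicate 2 together (chosen after seeing the data). Leaving out each array gave 0 to 2. For 0.2 against 0.002 mg/kg, the 2 calls became 4 with the brighter 50% of probes, 4 with trend and robust options, 4 with array weights, 6 with all 18 arrays in 1 fit, 5 at an adjusted p under 0.1 and 0 without replicate 2 of both doses (chosen after seeing the data), and 0 to 1 leaving out each array. The 31 calls between the tissues became 16 with quantile normalization, 14 with median centring and 14 with the brighter 50%, and 25 to 41 leaving out each array. The 2 interaction calls at 0.2 mg/kg became 1 with median centring, 1 with trend and robust options and 1 with the 12 arrays of vehicle and that dose, and 0 to 2 leaving out each array. At a floor of 8.5, 12 P450 probes remained above it in place of 19, and leaving out each array gave 18 to 20. Arrays share only a replicate number: same-numbered arrays correlated, as deviations from group means, at -0.25 to 0.11 in frontal lobe and -0.29 to 0.44 in total brain. With it as a replicate block the calls were 0 for 0.2 mg/kg against vehicle, 0 for 0.2 against 0.002 mg/kg, 1 for the interaction and 31 between the tissues. The calls in the other 5 comparisons were 0 in every alternative run. The causes of these changes were not tested. Signal near the floor limits what can be said of the 42 probes below it.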
